A study of Homo sapiens with 10 samples.

Results

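The DHRS genes (dehydrogenase/reductase SDR family members) encode enzymes that move hydride between NAD(P)(H) and alcohols, ketones and aldehydes. This report describes 10 of them, DHRS1, DHRS2, DHRS3, DHRS4, DHRS7, DHRS7B, DHRS7C, DHRS9, DHRS11 and DHRS13, in SNU398 cells, an established human hepatocellular carcinoma line, with and without knockdown of the zinc finger transcription factor SALL4. The genes were taken by name, and all 10 are listed among the 56303 rows of the per-library count files and the 33514 rows of a combined count matrix. DHRS2 was selected on its RNA counts, which were higher after knockdown, and DHRS7C was selected on the difference between the 2 deposited count tables. For these 2 genes the values below are a description and carry no test.

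RNA was sequenced 72 hours after transduction of SNU398 cells with 1 hairpin against SALL4 (shRNA-2, 2 libraries) or with a scrambled hairpin (2 libraries). SALL4 binding was mapped in nuclei of SNU398 cells, for which the labels name no hairpin, by CUT&RUN, in which an antibody tethers a nuclease that cuts the DNA around the bound protein (3 libraries). Libraries made with IgG as a control were not analysed here. All of it rests on 1 cell line and 1 hairpin sequence. The labels do not say that replicates were separate cultures. A p-value thus sets the group difference against the spread among these libraries only, estimated with help from all genes. That spread may be technical.

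Short-chain dehydrogenases share a nucleotide-binding fold and a catalytic tyrosine and lysine, and differ in what they reduce or oxidise. Several DHRS enzymes act on retinoids, where retinol dehydrogenases oxidise retinol to retinal, retinal reductases such as DHRS3 turn retinal back into retinol, and aldehyde dehydrogenases commit retinal to retinoic acid. Others reduce steroids, xenobiotic carbonyls or a precursor of ether lipids, reactions for which the liver is a main site.

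Total counts ranged from 158934493 to 225624957 per library in the per-library files and from 97876641 to 134506309 in the combined matrix. Levels are given as CPM, counts relative to the library total after TMM scaling for differences in RNA composition, and are compared between libraries but not between genes, as no transcript length was used. The targeted gene SALL4 had 4347 and 4068 counts in the knockdown libraries and 14632 and 9332 in the scramble libraries (log2 fold change -1.72, SE 0.19; edgeR adjusted p = 5.84e-06). Of 15 hepatocyte markers 13 were under 1 CPM in every library, among them ALB, AFP and HNF4A, while FOXA1 and CEBPA were not. The summed level of the 15 was 88.7 and 97.9 CPM after knockdown and 56.0 and 54.2 CPM in scramble, of which FOXA1, the one called, made up 75.2 and 80.6 CPM against 40.8 and 39.0 CPM. The summed level of 10 stromal fibroblast markers was 1003 to 1100 CPM, with COL3A1 alone at 767.5 to 886.6 CPM. Of the 10, 3 were called, FAP higher and COL1A1 and THY1 lower (edgeR, adjusted p under 0.05). That is 30.0%, and 14.3% of the 7 hepatocyte markers tested, against 5.55% of all genes tested. The 8 leukocyte markers summed to 0.647 to 0.791 CPM in the files and to 8.30 to 9.91 CPM in the combined matrix. The part of these markers in the results below was not tested.

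DHRS2 (HEP27) is a carbonyl reductase that acts on dicarbonyl compounds and has been found in mitochondria and nuclei. It lies on chromosome 14, at 23630115 to 23645639 (hg38, plus strand). Its count was 3823 and 5743 in the knockdown libraries and 1211 and 797 in the scramble libraries, or 19.0 and 26.3 CPM against 6.17 and 5.01 CPM. Both knockdown libraries lay above both scramble libraries. The group means were 22.7 ± 5.18 and 5.59 ± 0.816 CPM (SD, n = 2 per group), a 4.06-fold difference and a log2 fold change of 2.02 (SE 0.22). Leaving out single libraries gave log2 fold changes from 1.76 without knockdown replicate 2 to 2.24 without knockdown replicate 1. The combined matrix held 2854 and 3666 counts against 1055 and 639, and gave 2.02. In the authors' deposited table DHRS2 has a log2 fold change of 2.00. The files and the matrix are labelled with the same 4 libraries, and the table is labelled as made from libraries of this experiment. These values are thus no independent support.

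**Figure D1:**
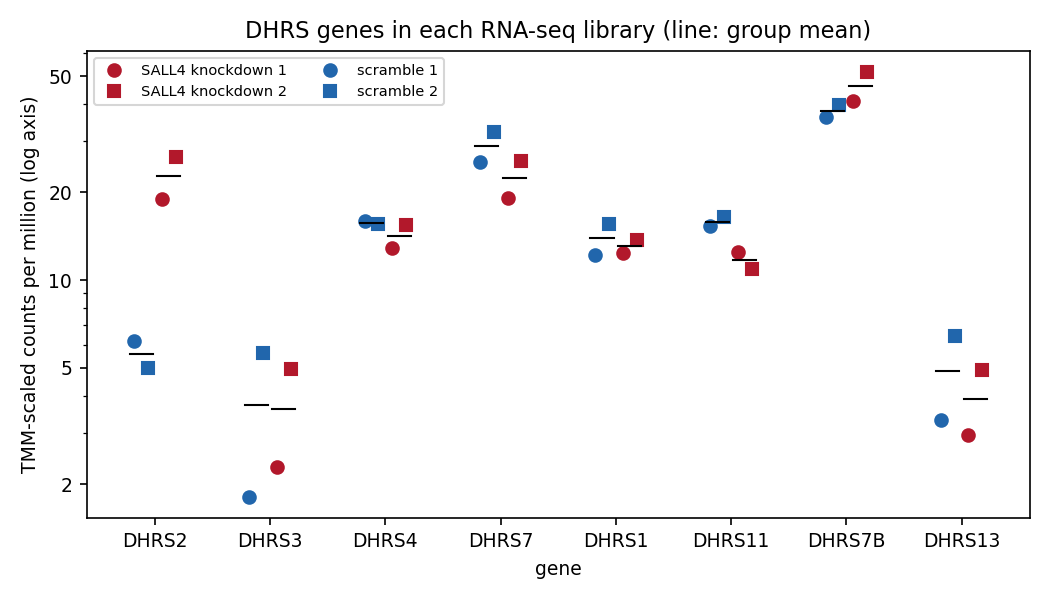
TMM-scaled CPM (log axis) of the 8 DHRS genes that passed the filter on low counts, in each of the 2 SALL4 knockdown (red) and 2 scramble (blue) libraries. Circles are replicate 1, squares replicate 2 and black lines group means. DHRS2 separates the groups widely, at 19.0 and 26.3 against 6.17 and 5.01 CPM, while DHRS3 and DHRS13 separate replicate 1 from replicate 2.

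DHRS2 has a single start site in the RefSeq table of promoters (GRCh38.p14). The 250 bases before it are shown because they differ in make-up from those before the first start of most other family members. Capitals mark AATATT, an AT-rich hexamer that reads the same on both strands. It was searched because the series' title ties SALL4 to an AT-rich motif, and it was chosen after the data were in hand.
DHRS2, chr14:23629865-23630114, plus strand: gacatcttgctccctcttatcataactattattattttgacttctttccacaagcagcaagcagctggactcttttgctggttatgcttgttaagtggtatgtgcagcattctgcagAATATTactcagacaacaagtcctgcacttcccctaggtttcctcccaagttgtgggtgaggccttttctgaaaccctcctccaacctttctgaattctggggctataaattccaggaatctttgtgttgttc
The hexamer lies 133 bases before the start. The promoter window, which runs from 250 bases before to 50 after the start, holds 0 CpG dinucleotides at 44.0% GC. A window with no CpG was found for 3.94% of 34961 RefSeq promoter windows, whose median was 14 CpG, and AATATT was found in 6.96% of them. RefSeq windows were matched for 8 of the 10 DHRS genes, 15 windows in all, and 2 of these hold AATATT, that of DHRS2 and 1 of DHRS9. The windows at the first start of DHRS1 (31 CpG), DHRS3 (31), DHRS4 (20), DHRS7B (22), DHRS11 (36) and DHRS13 (27) were all above the median, while the 4 of DHRS9 held 0 to 4. At their other starts DHRS1 held 27, DHRS3 13 and 5, and DHRS7B 6. Of the 15 windows, 7 held at most 6 CpG. A match to these letters is a description of the sequence and does not show a binding site.

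No common SALL4 region lay near DHRS2. The nearest of the 11201 regions that the authors list as common to the 3 CUT&RUN libraries began 99.9 kb after the gene's end, at chr14:23745581-23750021. Within 3 kb of the gene, single libraries had 0, 6 and 2 peaks, none taller than 3 steps and none in the promoter window. A step is the smallest unit of the authors' peak height, of which all heights were whole multiples within 0.01 steps, and the median peak reached 4, 3 and 3 steps in libraries 1, 2 and 3.

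The genes around DHRS2 were read from the same fit. Of 24 other RefSeq genes tested within 500 kb, a distance set after the data were seen, 0 were called higher and 1 lower (edgeR, adjusted p under 0.05), and their log2 fold changes ran from -1.42 to 0.37 with a median of -0.18. Over all 25807 genes tested, 5.55% were called, 2.31% higher and 3.25% lower, at a median of 0.00. AP1G2, an adaptor subunit of vesicle coats and one of the closest genes, fell from 5052 and 4712 counts to 3241 and 3148 (log2 fold change -0.86, SE 0.20; edgeR adjusted p = 0.00896). JPH4, a junctophilin that lies between AP1G2 and DHRS2, had 70 and 55 counts against 78 and 100 and was not called. The long noncoding genes on the other side of DHRS2 were not matched to a row of the count files.

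**Figure D2:**
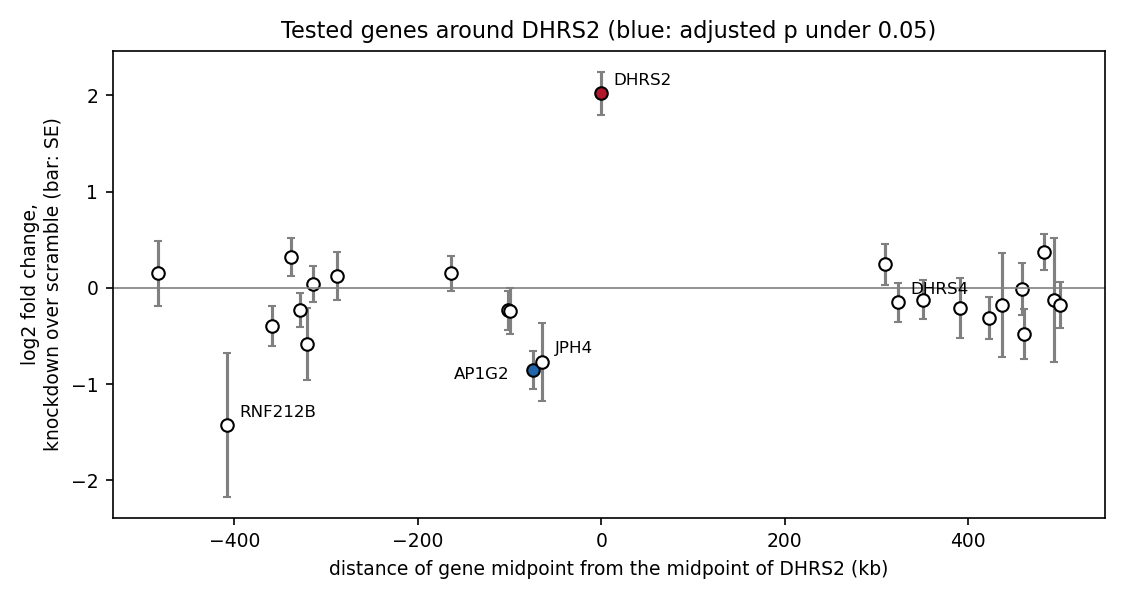
Log2 fold change, knockdown over scramble, of each tested RefSeq gene by the distance of its midpoint from that of DHRS2 in kb, with bars for SE. DHRS2 (red) stands at 2.02, AP1G2 (blue, adjusted p under 0.05) at -0.86, and the remaining genes (white) lie between -1.42 and 0.37.

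By distance between log2 CPM values centred on their mean over the 4 libraries, SATB1 was the closest of 18032 genes to DHRS2 (0.16), followed by RPS4XP5 (0.24), IQUB (0.27), MYPN (0.29) and COX7C (0.29). SATB1, a chromatin organiser, had 0.497 and 0.624 CPM after knockdown and 0.143 and 0.113 in scramble. COX7C, a subunit of cytochrome c oxidase, had 190.7 and 203.5 CPM against 57.0 and 48.4. With 4 libraries this likeness mostly restates the contrast between groups. None of the other DHRS genes came close, the smallest distance being 1.76, for DHRS7B.

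Apart from DHRS2, 7 of the 10 genes had enough counts to be tested, and none of them was called (edgeR quasi-likelihood test, adjusted p from 0.245 to 0.991). An unadjusted p under 0.05 was found for 1 of the 7, against 4682 of 25807 genes tested, and the count with DESeq2 was also 0. With the combined matrix it was 0 as well, where 5.26% of all genes tested were called. Their median log2 fold change was -0.15, with 1 positive and 6 negative values. In 3 of the 7 the groups did not overlap, against 47.1% of all genes tested. A p that misses the threshold does not show that a level stayed the same, and the SE of 0.19 to 0.78 on the log2 scale bounds what these 4 libraries can show.

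Among the retinoid enzymes, DHRS3, the retinal reductase that limits retinoic acid formation together with RDH10, differed more between replicates than between hairpins. It lies on chromosome 1 at 12567910 to 12618210. It had 2.29 and 4.97 CPM in knockdown replicates 1 and 2 and 1.81 and 5.63 CPM in scramble replicates 1 and 2. Replicate 2 was thus 2.17-fold above replicate 1 after knockdown and 3.11-fold above it in scramble. A difference over 2-fold in that direction in both groups was found for 0.767% of genes tested. The log2 fold change between groups was -0.03 (SE 0.78; edgeR adjusted p = 0.991), and it turned to 1.01 without scramble replicate 2 and 0.42 without knockdown replicate 1.

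DHRS4, a peroxisomal reductase of retinal and other carbonyls, lies on chromosome 14 at 23953770 to 23969279. Its level was 12.9 and 15.5 CPM after knockdown and 15.9 and 15.6 CPM in scramble, groups that just miss overlapping (log2 fold change -0.15, SE 0.20; edgeR adjusted p = 0.785). DHRS4 has near copies beside it, DHRS4L2 (chr14:23969874-24006408) and the transcribed pseudogene DHRS4L1 (chr14:24007084-24051377). DHRS4-AS1 (chr14:23938731-23955112) overlaps its first part, where reads cannot be told apart without a stated strand setting. Whether reads of these genes entered the count of DHRS4 was not tested, which leaves its value uncertain. The promoter windows compared next lie mostly before the start and are no comparison of transcripts. Of the 3 RefSeq promoter windows of DHRS4L2, the third matches that of DHRS4 at 88.0% of 284 aligned bases, with 32 gap positions left out of that share. The windows at its other starts align with DHRS4 over 33 and 135 bases only, at 57.6% and 63.0%. The aligned stretches before the start of DHRS4 and the third start of DHRS4L2 are shown with the 29 aligned bases that differ in capitals, while bases opposite a gap stay in lower case, and the longest identical run is 35 bases.
DHRS4, chr14:23953535-23953769, plus strand: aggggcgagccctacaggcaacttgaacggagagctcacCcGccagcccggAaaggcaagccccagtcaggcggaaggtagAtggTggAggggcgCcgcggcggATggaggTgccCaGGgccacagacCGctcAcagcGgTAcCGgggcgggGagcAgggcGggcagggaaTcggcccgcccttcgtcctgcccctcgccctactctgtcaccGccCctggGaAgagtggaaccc
DHRS4L2, chr14:23988679-23988928, plus strand: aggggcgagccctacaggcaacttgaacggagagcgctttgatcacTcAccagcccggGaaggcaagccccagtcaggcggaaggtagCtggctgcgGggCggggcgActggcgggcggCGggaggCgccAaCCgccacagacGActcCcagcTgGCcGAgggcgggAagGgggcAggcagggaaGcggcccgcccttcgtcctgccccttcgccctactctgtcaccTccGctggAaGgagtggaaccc
DHRS4L2 had 11.1 and 13.6 CPM after knockdown and 13.4 and 13.6 CPM in scramble (log2 fold change -0.12, SE 0.21; edgeR adjusted p = 0.841). DHRS4L1 (-0.21) and DHRS4-AS1 (0.24) were not called either (edgeR adjusted p = 0.815 and 0.622).

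DHRS7, a membrane-bound reductase of the endoplasmic reticulum that acts on retinal and steroids, lies on chromosome 14 at 60144119 to 60169889. It had 19.1 and 25.6 CPM after knockdown and 25.3 and 32.1 CPM in scramble, with the upper knockdown library just above the lower scramble library (log2 fold change -0.36, SE 0.20; edgeR adjusted p = 0.371). DHRS9, a retinol dehydrogenase of epithelia on chromosome 2 at 169067077 to 169096167, was close to silent. It had 3 and 1 counts after knockdown and 6 and 2 in scramble, too few to test.

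Of the genes tied to steroids, DHRS11, a cytosolic reductase of keto-steroids, had the most negative log2 fold change of the 7. It lies on chromosome 17 at 36591879 to 36600804. Its level was 12.5 and 10.9 CPM against 15.3 and 16.4 CPM, groups that do not overlap (log2 fold change -0.44, SE 0.20; edgeR adjusted p = 0.245, unadjusted p = 0.0404). DHRS1, an endoplasmic reticulum enzyme on chromosome 14 at 24290598 to 24299780, had 12.4 and 13.7 CPM against 12.2 and 15.6 CPM, which overlap (-0.09, SE 0.21; adjusted p = 0.899).

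DHRS7B, the peroxisomal acyl-dihydroxyacetone phosphate reductase of ether lipid synthesis, was the single gene of the 7 with a positive change. It lies on chromosome 17 at 21126964 to 21191420. It had 40.9 and 51.6 CPM after knockdown and 36.1 and 39.8 CPM in scramble, which do not overlap (log2 fold change 0.29, SE 0.19; edgeR adjusted p = 0.462). DHRS13 lies on chromosome 17 at 28897781 to 28903079. Like DHRS3 it was higher in replicate 2 of both groups, with 2.94 and 4.92 CPM after knockdown and 3.32 and 6.43 CPM in scramble (-0.31, SE 0.33; adjusted p = 0.722), and without scramble replicate 2 its log2 fold change turned to 0.25.

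**Figure D3:**
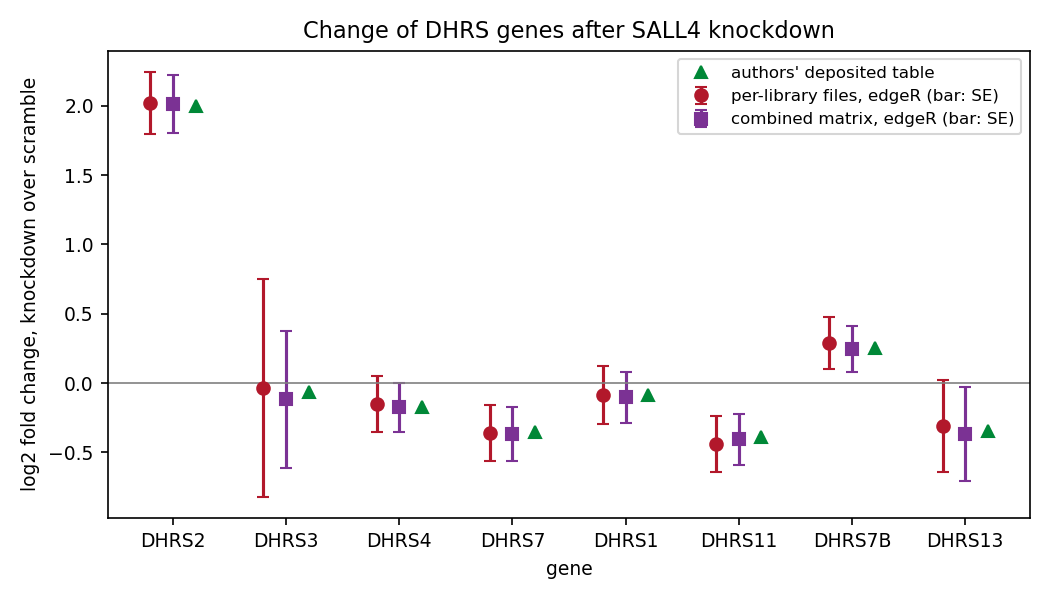
Log2 fold change, knockdown over scramble, of 8 DHRS genes from the per-library files (red circles) and the combined matrix (purple squares), both with edgeR and bars for SE, and from the authors' deposited table (green triangles, no error given). For each of the 8 genes the other estimates lie within 1 SE of the per-library value.

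The authors' deposited table holds 8 of the 10 genes. It lists DHRS7 (log2 fold change -0.35, adjusted p = 0.0132), DHRS11 (-0.39, adjusted p = 0.0241) and DHRS7B (0.25, adjusted p = 0.0382) as changed, 3 of the 7 beside DHRS2. Of the 15141 genes in the authors' deposited table, 37.0% have an adjusted p under 0.05 (17.2% higher and 19.8% lower), so that 3 of 7 is near its background. The name of the table gives 3 libraries per group where 2 per group were analysed here, and which libraries it rests on is not given in the sources used here.

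DHRS7C is known from the sarcoplasmic reticulum of skeletal muscle, where it acts on retinol. It lies on chromosome 17 at 9771438 to 9791592, and the 2 deposited tables give it different accounts. The per-library files hold 6 and 6 counts in the knockdown libraries and 0 and 0 in the scramble libraries, close to the floor of 3 counts per library. The combined matrix holds 902 and 1664 counts in the columns labelled as the same knockdown libraries, and 0 and 0 in those of the scramble libraries. In the matrix DHRS7C is thus at least 443-fold higher after knockdown, with scramble set to the floor of 3 counts per library. In the per-library files the same floor gives 1.74-fold, but 6 and 6 counts are too few to test and set no lower bound. Summed over the knockdown libraries, the matrix count is 213.8 times the count of the files. Which of the 2 tables rests on the right reads is not known.

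For the 8 tested DHRS genes the matrix held 0.564 to 0.919 times the count of the files. Over all genes with at least 10 counts the median ratio was 0.735 and 0.634 for the knockdown libraries and 0.878 and 0.797 for the scramble libraries. To compare groups, the log2 ratio of the tables (with 5 counts added to both) was averaged in each group and the difference centred on the median gene. Of 15923 genes with a mean of at least 10 counts 0.835% differed by more than 1 on this scale, 109 towards knockdown and 24 towards scramble. DHRS7C stood at 7.09, the second largest size after BIN2, while the 8 tested DHRS genes lay between -0.05 and 0.04. Its neighbours on the chromosome showed no such gap. USP43 had 1442 and 1799 knockdown counts in the matrix and 2001 and 2734 in the files, GSG1L2 was at 0 in both tables, and GLP2R had at most 4 counts in any library.

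**Figure D4:**
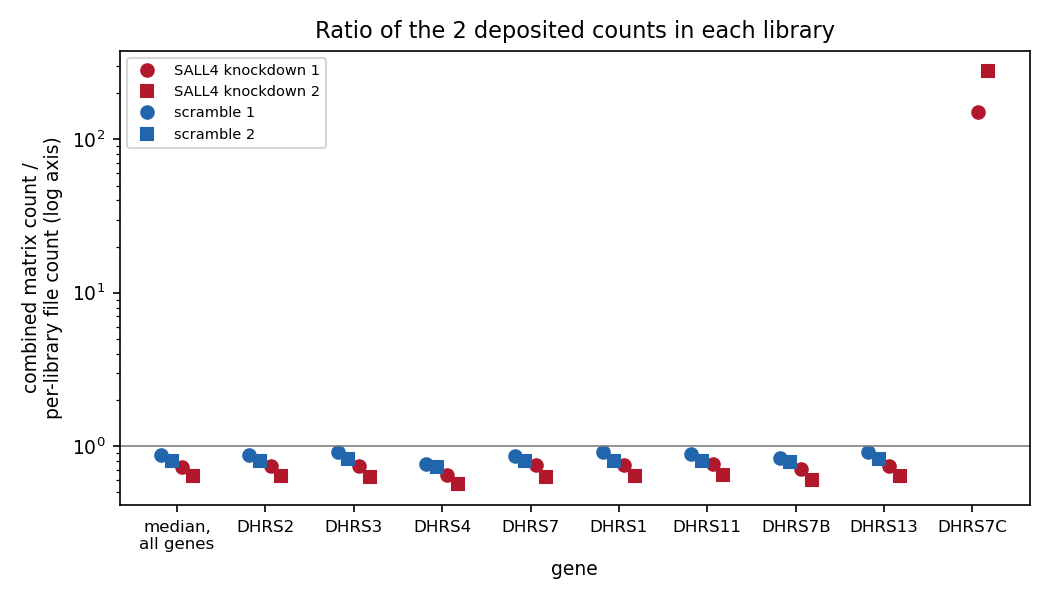
Count in the combined matrix divided by the count in the per-library file (log axis) for the median gene, the 8 tested DHRS genes and DHRS7C, in each knockdown (red) and scramble (blue) library. The tested genes follow the median gene, between 0.564 and 0.919, while DHRS7C stands at 150.3 and 277.3 in the knockdown libraries and has no ratio in scramble, where both counts are 0.

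As DHRS7C is known from muscle, other muscle genes were read beside it. The summed level of 14 skeletal muscle markers was 30.8 and 27.7 CPM after knockdown and 27.6 and 30.7 CPM in scramble in the files, and 42.0 and 35.7 against 37.6 and 40.5 CPM in the matrix. Of these markers 10 were under 1 CPM in every library of the files. Single markers of low count went either way. The myogenic factor MYOD1 had 5 and 3 counts in the knockdown columns of the matrix and 4 and 11 in the scramble columns, while MYOG, another myogenic factor, had 4 and 9 against 0 and 0. In the files MYOG had 4 and 20 counts against 0 and 0, TRDN, a protein of the calcium release complex, had 8 and 22 against 5 and 2, and muscle creatine kinase, CKM, had 56 and 96 against 35 and 20 (log2 fold change 1.23, SE 0.47; edgeR adjusted p = 0.134). JPH1, a junctophilin of muscle, was the one marker called of 7 tested, lower after knockdown (-1.25; edgeR adjusted p = 0.0314). That is 14.3%, against 5.55% of all genes tested.

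CUT&RUN, which played no part in choosing the genes, placed a common SALL4 region within 3 kb of 1 of the 10 genes, DHRS9. The same was found for 9.51% of all RefSeq genes and for 10.8% of protein-coding genes with spans between those of the shortest and longest DHRS gene (5299 and 64457 bp), so the share among DHRS genes is near the background. The other distances to the nearest common region ran from 36.1 kb for DHRS1 and 37.0 kb for DHRS4 to 5090 kb for DHRS11. The region nearest to DHRS4 (chr14:24006303-24007922) spans the end of DHRS4L2 and the first bases of DHRS4L1.

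At DHRS9 the common region (chr2:169071879-169074102, 2224 bp) lies inside the gene and holds the third of its 4 annotated start sites. The bases before that start are shown because they are the promoter sequence of the family that a common region covers, with AATATT in capitals.
DHRS9, chr2:169072325-169072574, plus strand: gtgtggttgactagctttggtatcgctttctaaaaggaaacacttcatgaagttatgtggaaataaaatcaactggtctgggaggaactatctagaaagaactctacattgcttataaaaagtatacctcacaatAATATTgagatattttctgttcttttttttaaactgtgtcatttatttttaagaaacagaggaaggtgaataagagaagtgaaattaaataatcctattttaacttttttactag
The window has 31.3% GC and 2 CpG. Library 3 has a peak of 4 steps at chr2:169072311-169072448 that covers its first part, and library 2 has peaks of 2 steps at chr2:169072227-169072336 and at chr2:169072517-169072615, the latter over the start site. The hexamer, at chr2:169072460-169072465, falls between these peaks and under none of them. Library 1 has its peak of 6 steps at chr2:169073578-169073627, beyond the window, and no position in the region is covered by peaks of all 3 libraries. With 1 to 6 counts of DHRS9 per RNA library, a change in its transcript could not be tested.

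**Figure D5:**
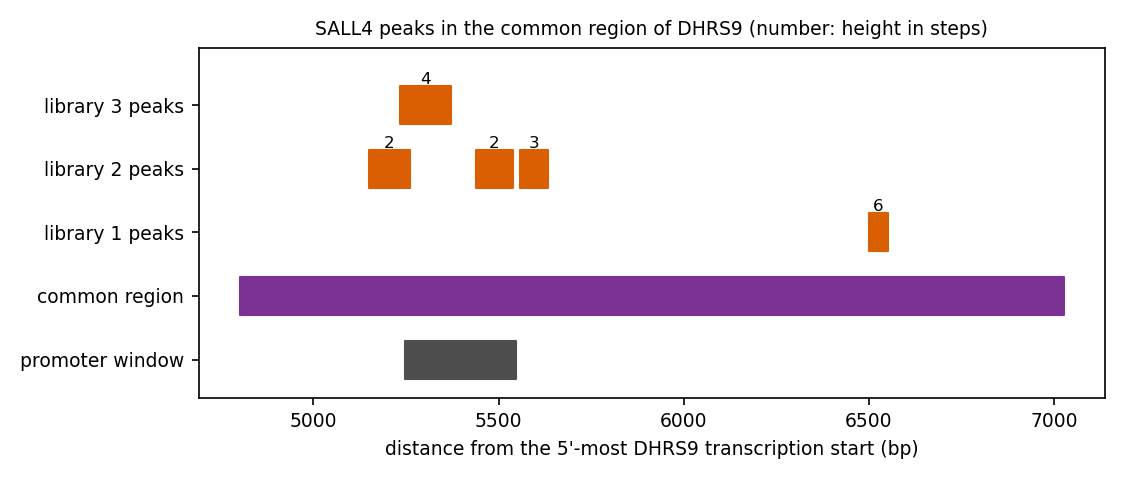
Peaks of the 3 SALL4 CUT&RUN libraries (orange, with height in steps) in the common region (purple) of DHRS9, by distance in bp from the first of its start sites, with the promoter window of the third start (grey). Peaks of libraries 2 and 3 overlap the window, and the peak of library 1 lies apart from them.

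Peaks of single libraries were also found at the other DHRS genes. DHRS3 had 3, 7 and 4 peaks within 3 kb in libraries 1, 2 and 3, DHRS7B had 0, 13 and 4, DHRS7 had 1, 5 and 7, and DHRS13 had 0, 2 and 0, none of them taller than 6 steps. DHRS4 had 1, 4 and 4, of which a library 3 peak of 3 steps at chr14:23953690-23953770 ended at its start site. The 99th percentile of peak height was 12, 5 and 6 steps in libraries 1, 2 and 3. Of the 13 library 2 peaks at DHRS7B 3 reached 6 steps, above that percentile, at chr17:21138020-21138061, chr17:21174327-21174396 and chr17:21174446-21174519, and library 1 had 0 peaks there.

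Genes with related roles were read from the same fit, in lists of other DHRS-named genes, retinoid genes, steroid and carbonyl dehydrogenases, and ether lipid and peroxisome genes. Of 75 tested members 2 rose and 9 fell, or 14.7% against 5.55% of all genes, at a median log2 fold change of -0.10. The number called fell to 6 with scaling by library size alone, where the total over all genes fell from 1433 to 591. It was 7 with the combined matrix, where 5.26% of all genes tested were called. None of the 6 other DHRS-named genes was called (0 at an unadjusted p under 0.05; edgeR), with log2 fold changes from -0.21 for DHRS4L1 to 0.43 for DHRSX. The authors' deposited table lists DHRSX as changed (log2 fold change 0.38, adjusted p = 0.0245), as it does 37.0% of its genes.

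In the retinoid list 2 of 24 tested genes rose and 2 fell (16.7% called, against 5.55% of all genes tested), at a median of 0.09. The retinal dehydrogenases ALDH1A1 and ALDH1A3, which make retinoic acid, both fell. ALDH1A1 went from 479.7 and 445.1 to 283.7 and 233.8 CPM (log2 fold change -0.84, SE 0.19; edgeR adjusted p = 0.00790), and ALDH1A3 from 9.97 and 10.5 to 4.53 and 4.19 CPM (-1.23, SE 0.22; adjusted p = 0.00129). The receptors RARB and RXRB rose. RARB went from 107.4 and 99.3 to 154.4 and 178.2 CPM (0.69, SE 0.18; adjusted p = 0.0222), and RXRB from 23.2 and 28.5 to 36.7 and 53.8 CPM (0.81, SE 0.21; adjusted p = 0.0201). The ALDH1A3 call held in all 11 alternatives, whereas RXRB kept its call in 6, RARB in 8 and ALDH1A1 in 9. In bulk RNA, fewer expressing cells and less RNA per cell cannot be told apart.

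Of 30 tested steroid and carbonyl dehydrogenases 5 fell and 0 rose (16.7% called, against 5.55% of all genes tested), at a median of -0.22. SPR, the sepiapterin reductase of tetrahydrobiopterin synthesis, went from 160.9 and 168.8 to 69.8 and 89.5 CPM (log2 fold change -1.05, SE 0.19; edgeR adjusted p = 9.83e-04). The carbonyl reductase CBR1 (-0.64, edgeR adjusted p = 0.0377) and the steroid dehydrogenases HSD11B2 (-1.01, adjusted p = 0.0387) and HSD17B6 (-0.95, adjusted p = 0.0412) also fell. But each of the 3 lost its call with library size alone, with the combined matrix and when any single library was left out.

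In the list of ether lipid synthesis and peroxisome import, 2 of 15 fell and 0 rose (13.3% called, against 5.55% of all genes tested), at a median of -0.07. ABCD3, a transporter of fatty acids into peroxisomes, went from 148.9 and 108.7 to 63.6 and 49.9 CPM (log2 fold change -1.18, SE 0.20; edgeR adjusted p = 6.54e-04), and catalase, CAT, from 43.7 and 51.0 to 25.3 and 31.3 CPM (-0.74, SE 0.19; adjusted p = 0.0200). The CAT call was lost without knockdown replicate 1, without scramble replicate 2 and with library size alone (adjusted p up to 0.213). The members that make ether lipids beside DHRS7B, namely GNPAT, AGPS, FAR1, FAR2 and PEDS1 (TMEM189 in the files), were not called.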

How the data were processed

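The per-library files and the combined matrix, as deposited, hold raw counts per gene symbol. The submitters' processing notes name Trim Galore 0.4.5, STAR and featureCounts without roles, and the build hg38; the sources used here give neither annotation release nor strand setting. Per the file headers, the authors' deposited table lists for each gene a log2 fold change with its p-value, a mean log2 level and further score columns. The deposited peak files hold the total and highest signal of each peak, 1 list per library, in the layout of SEACR 1.1. Peak positions are written 1-based.

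Genes of the per-library files that passed filterByExpr were fitted in edgeR 4.0.16 under R 4.3.3, with TMM factors, a robust quasi-likelihood model of group alone and Benjamini-Hochberg adjustment over 25807 genes (threshold 0.05); the SE is the log2 fold change divided by the square root of F. The scripts were tested on simulated data. Alternatives were no filter, 5 CPM in 2 libraries, other scalings, DESeq2 1.42.0, a replicate block, leaving out each library, and the combined matrix. Genes were placed by RefSeq spans (GRCh38.p14, the build of hg38).

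The genes, lists, markers and alternatives were chosen with earlier results of these data known. Named were SALL4, all 10 DHRS genes, other DHRS-named genes, called members of each list (1 is not reported here), the 3 RefSeq genes on either side of DHRS2 and DHRS7C, and the 5 genes most like DHRS2; BIN2, MYOD1, MYOG, TRDN, CKM and the other markers and ether lipid genes were named after their values were seen.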

Additional observations from a re-analysis of the deposited data

How the results depend on the processing

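The total of 1433 genes called became 731 with the 5 CPM filter, 591 with library size alone and 810 to 1191 when 1 library was left out. The labels do not say what replicate numbers share; with them as a replicate block 4921 genes were called (19.1%), with 2 of the 7 tested DHRS genes, DHRS7 (-0.37, adjusted p = 0.0288) and DHRS11 (-0.44, adjusted p = 0.00822), and 23 related genes. The deviations of same-numbered libraries correlated at 0.48 across genes, over 2 pairs. No DHRS gene of the 7 was called in the other 10 alternatives, including the 4 that left out 1 library (0 to 0). Related genes called, 11, became 6 with library size alone, 7 with the combined matrix and 6 to 8 with 1 library left out. Uncalled changes reversed for DHRS1 (-0.26 to 0.11 with 1 library left out), DHRS13 (-0.74 to 0.25, with 0.02 without knockdown replicate 1) and DHRS3 (-0.71 to 1.01, with 0.42 without knockdown replicate 1, and 0.068 with the block); the cause was not tested. DHRS2 had 1.76 to 2.24 in all 11 alternatives. The DHRS7C ratio of the tables, 213.8 in counts, was 401.1 in CPM, since the totals of the tables differ. The 1 DHRS gene with a common region became 0 when the region had to hold a position covered in all 3 libraries, and 0 when each library needed a peak in the top 25% of total signal; windows of 1 kb, 10 kb or the gene span, and a 50 bp overlap, gave 1. Depth limits DHRS9.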

Other observations

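The authors' deposited table holds no row for DHRS7C although the combined matrix gives it 8.30 and 15.2 CPM (unscaled) in the knockdown libraries. All 15141 genes of the authors' deposited table, and none of the other 18373 genes of the matrix, are above 0.5 CPM in at least 3 of the 4 libraries of the matrix. A further 490 genes are above 0.5 CPM in exactly 2 libraries, 165 of them in both knockdown and in no scramble library and 123 in both scramble and in no knockdown library. DHRS7C has the highest mean CPM of the 18373.

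BIN2, the gene with the largest difference between the 2 count tables, had 619 and 1537 counts in the knockdown columns of the matrix and 6 and 4 in the per-library files, with 10 and 3 against 14 and 6 in scramble. DHRS12 had a lower ratio of matrix to file in every library than any of the 8 tested genes described above, at 0.331 and 0.285 after knockdown and 0.472 and 0.414 in scramble.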
